A study of Mus musculus with 99 samples.

Results

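The genes described here are the mouse Eph receptors, their ephrin ligands, the semaphorins of classes 3 to 7, and the plexins, which are the receptors of semaphorins. They were chosen by symbol alone, as every protein-coding gene whose GENCODE symbol marks it as Epha, Ephb, Efna, Efnb, Sema or one of the vertebrate plexins, whatever its values. The set holds 51 of the 55335 gene identifiers counted, of which 21899 are protein-coding. It comprises 9 EphA and 5 EphB receptors, 5 ephrin-A and 3 ephrin-B ligands, 9 plexins, and 7, 6, 2, 4 and 1 semaphorins of classes 3, 4, 5, 6 and 7.

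RNA was sequenced from tissue punches of 5 brain regions of juvenile wild-type mice. The regions were the ventral tegmental area (VTA), a midbrain nucleus with dopamine neurons; the ventrobasal thalamus (VBT), the relay of touch to cortex; S1, the cortical area of touch (primary somatosensory); PrL, the prelimbic part of the medial prefrontal cortex; and the nucleus accumbens (NAc), the ventral striatum. In the fentanyl groups, C57BL/6 dams had drunk the opioid agonist fentanyl at 10 µg/ml in their water between embryonic day 0 and weaning, and the control groups are labelled water. Each region had female and male groups of both treatments with 5 libraries a group, except that male water S1 had 4, which gave 99 libraries in 20 groups. The exposure was of the dam, and the labels give neither the litter nor the day of age of a library, so the p-values measure the spread between these libraries. In bulk tissue, fewer cells of a type and less RNA per cell cannot be told apart.

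Ephrins are ligands held on the cell surface, of which the A subclass is anchored to the membrane by a lipid and the B subclass spans it, and their contact with Eph receptors on a neighbouring cell mostly repels growing axons. Graded ephrin-A and EphA expression orders topographic maps, including the projection from the ventrobasal thalamus to somatosensory cortex. Semaphorins are secreted (class 3) or membrane-bound ligands that steer axons, dendrites and synapses. They act through plexins, to which most class 3 members are joined by the co-receptors neuropilin-1 and neuropilin-2.

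Libraries held between 23032078 and 52069639 counts in genes, apart from 1 male water VTA library (replicate 3) with a count in only 6333 genes against 24079 to 27347 in the other 98, which was left out. Levels are CPM, a gene's count scaled to a fixed total of gene counts per library, and 3 counts in the smallest library used equal 0.130 CPM. In the water libraries, each list of summed markers was highest in the region or regions it marks. VTA markers averaged 1195 CPM in VTA and 0.765 to 12.3 CPM elsewhere, VBT markers 2807 CPM in VBT and 47.3 to 351 elsewhere, cortex markers 1657 CPM in S1 and 2073 in PrL (764 in NAc, 513 in VBT and 72.6 in VTA), and striatum markers 1973 CPM in NAc and 93.4 to 227 elsewhere. Some punches held neighbouring tissue. Cortex markers reached 1442 CPM in a NAc library, choroid plexus markers 4575 CPM in a VBT library and olfactory bulb markers 584 CPM in a PrL library. Myelin genes averaged 26470 CPM in VBT and 22180 in VTA against 7675 in NAc, 3813 in S1 and 1404 in PrL. Sex-linked genes followed the labels, although 1 female fentanyl VBT library (replicate 1) held 9.42 CPM of the Y-linked gene Ddx3y against at most 0.528 in the other females and at least 70.4 in males.

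The regions differed in which ligands and receptors they expressed far more than in the sum. The 51 genes together took 2328 to 3223 CPM in every library, and 49 of them averaged at least 1 CPM in every region. The mean of the highest region was at least 2 times that of the lowest for 38 genes, at least 5 times for 9 and at least 10 times for 3 (Efnb2, Sema3a and Epha1), with a median of 2.72. VTA was the highest region for 17 genes, PrL for 11, VBT for 10, NAc for 8 and S1 for 5, and VBT was the lowest for 20. Per kilobase of exon, the 5 highest genes over the regions were Efnb3 at 49.3, Sema7a at 48.5, Sema6b at 28.5, Epha4 at 28.0 and Ephb6 at 25.4 CPM per kb.

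Each region was compared with the mean of the other 4 in the 48 water libraries used, with edgeR's quasi-likelihood test, Benjamini-Hochberg adjustment over 21468 genes, and a call at adjusted p under 0.05 and an absolute log2 fold change of at least 1. In VBT 18 of 51 genes were called, 8 higher and 10 lower, against 19.7% of all genes (8.34% higher and 11.3% lower). VTA had 11, 7 higher and 4 lower, against 17.2% of all genes (9.73% and 7.5%). S1 had 11, 5 higher and 6 lower, against 13.2% (7.31% and 5.92%). PrL had 10, 5 in each direction, against 12.9% (7.16% and 5.71%), and NAc had 5, 2 higher and 3 lower, against 12.3% (7.25% and 5.06%). The shares of the set were 35.3% in VBT, 21.6% in VTA and S1, 19.6% in PrL and 9.80% in NAc. In the fentanyl libraries, which are separate samples, 17 of the 18 VBT calls were called again, 6 of 11 in VTA, 7 of 11 in S1, 8 of 10 in PrL and 5 of 5 in NAc, and all kept their sign. Those not called again in VTA were Efnb3 (0.76), Epha1 (0.88), Sema3a (-0.99), Sema3f (0.81) and Sema4g (0.91). In S1 they were Epha1 (-0.97), Plxnb3 (-0.73), Sema4g (-0.99) and Sema5a (-0.93). The others were Sema4a in VBT (-0.84), and Efnb3 (-0.99) and Epha3 (0.90) in PrL. Between pairs of regions at adjusted p under 0.05, the fewest genes differed between the cortical regions S1 and PrL (23 of 51, against 37.3% of all genes). VTA differed from S1 in 46 (67.6%), from PrL in 45 (66.5%), from NAc in 39 (64.8%) and from VBT in 34 (52.5%). VBT differed from PrL in 42 (68.4%), from NAc in 42 (67.8%) and from S1 in 41 (68%), and NAc differed from S1 in 38 (53.3%) and from PrL in 38 (50.3%).

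**Figure D1:**
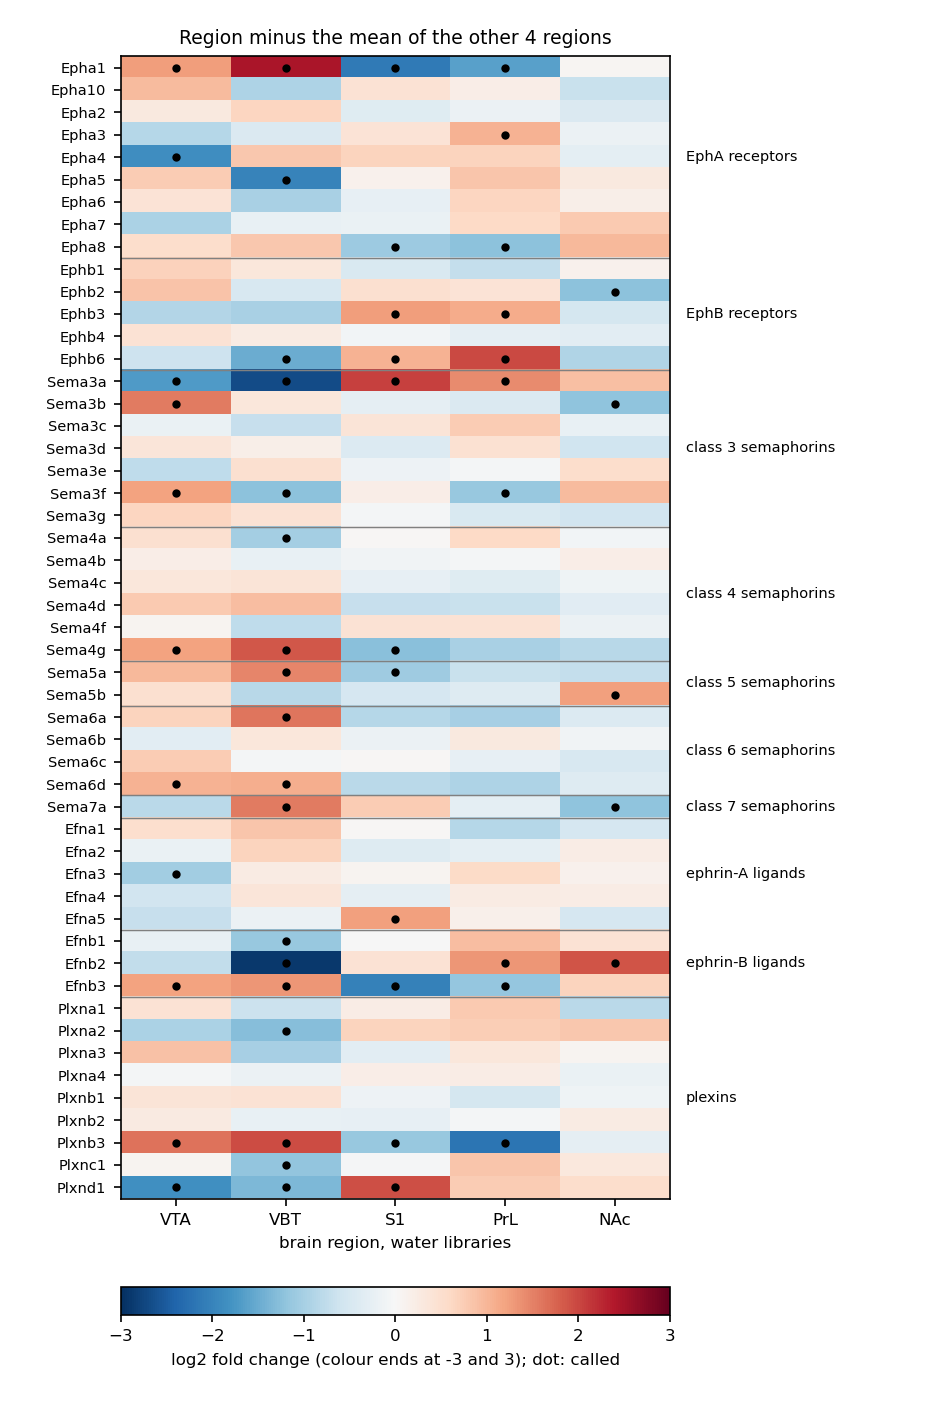
Log2 fold change of each of the 51 genes (rows, grouped by family) in each region against the mean of the other 4 regions, in water libraries; a dot marks adjusted p under 0.05 with an absolute log2 fold change of at least 1. VBT has 18 dots and NAc 5, and Efnb2 in VBT is the darkest blue at -2.91.

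The upstream sequence of 4 genes that differed between regions is shown. These bases lie outside the exons, so they are not part of the exon GC content used below. Their relation to the levels was not tested. RefSeq starts for GRCm38.p6 gave 59 promoter windows for 45 of the 51 genes. The windows below hold 250 bases before the start, or, for Plxnb3, 237 bases that end where its first exon begins; each reads 5′ to 3′ on the gene's strand, with every CG dinucleotide in capitals. They lie at chr6:115995006-115995255 (minus strand) for Plxnd1, chr8:8661243-8661492 (minus) for Efnb2, chr9:57939862-57940111 (plus) for Sema7a and chrX:73756853-73757089 (plus) for Plxnb3.
Efnb2: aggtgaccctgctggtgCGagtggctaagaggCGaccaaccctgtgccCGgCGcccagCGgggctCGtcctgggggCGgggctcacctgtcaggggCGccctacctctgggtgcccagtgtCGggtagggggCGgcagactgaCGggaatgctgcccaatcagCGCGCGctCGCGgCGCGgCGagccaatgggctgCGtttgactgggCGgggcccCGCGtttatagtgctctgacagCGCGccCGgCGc
Plxnd1: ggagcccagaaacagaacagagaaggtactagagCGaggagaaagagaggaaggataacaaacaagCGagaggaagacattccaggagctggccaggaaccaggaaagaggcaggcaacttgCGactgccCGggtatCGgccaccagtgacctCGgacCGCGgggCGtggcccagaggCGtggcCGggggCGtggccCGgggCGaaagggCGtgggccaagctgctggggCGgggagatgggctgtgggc
Sema7a: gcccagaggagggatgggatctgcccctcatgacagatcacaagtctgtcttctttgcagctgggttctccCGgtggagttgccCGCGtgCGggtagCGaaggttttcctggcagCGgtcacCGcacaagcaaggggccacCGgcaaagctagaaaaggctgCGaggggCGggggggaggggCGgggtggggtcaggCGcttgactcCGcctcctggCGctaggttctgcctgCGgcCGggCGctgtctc
Plxnb3: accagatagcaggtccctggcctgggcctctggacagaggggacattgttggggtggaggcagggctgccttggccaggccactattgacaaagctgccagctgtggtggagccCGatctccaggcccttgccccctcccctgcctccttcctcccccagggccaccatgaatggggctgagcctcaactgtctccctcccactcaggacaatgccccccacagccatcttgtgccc
The Efnb2 window holds 27 CG dinucleotides, the Sema7a window 17 and the Plxnd1 window 16, whereas the Plxnb3 window holds 1. Windows with 15 or more CG, counted on 1 strand since CG reads the same on both, made up 33 of the 59 windows of the set (55.9%) and 27.3% of all 32851 windows of that length in the table. The median was 16 CG and 64% GC in the set and 6 CG and 52.4% GC in all windows.

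Among the ephrins, the B ligands divided the regions most. Efnb2, a transmembrane ligand of EphB receptors and of Epha4, was highest in NAc, where the water libraries ran from 119 through a median of 136 to 154 CPM (mean 136 ± 12.2, SD, n = 10). In VBT they ran from 4.94 through 6.57 to 19.9 CPM (8.84 ± 5.28, n = 10), with no overlap. PrL (94.1 ± 12.5 CPM), S1 (57.9 ± 5.45) and VTA (31.8 ± 6.98) lay between, and every neighbour in that order differed in the test. Against the other regions Efnb2 stood at 1.88 ± 0.12 (log2 fold change ± SE) in NAc, 1.33 ± 0.12 in PrL and -2.91 ± 0.16 in VBT. The highest VBT values, 19.9 and 17.1 CPM, came from the VBT libraries with the most striatum markers (714 and 496 CPM), and Efnb2 remained called in VBT without these libraries.

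Efnb3, the third ephrin-B, had another order, with VTA and VBT at the top. It averaged 250 ± 31.8 CPM in VTA (n = 9) and 244 ± 79.7 in VBT (n = 10), which did not differ beyond their spread (adjusted p = 0.605). It was lowest in S1, at 32.2 to 57.9 CPM with a median of 35.9 (39.7 ± 8.36, n = 9), where its log2 fold change was -2.04 ± 0.13. Of the ephrin-A ligands, which bind EphA receptors, Efna5 was called in 1 region. It lay at 54.1 to 69.5 CPM with a median of 58.8 in S1 (59.7 ± 5.06, n = 9), and at means of 22.0 to 32.6 CPM in the other 4 regions (S1 log2 fold change 1.23 ± 0.06). Efna3 was lower in VTA (-1.05) and Efnb1 lower in VBT (-1.14).

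The EphA receptors split VTA and VBT from the rest through different genes. Epha4, which binds ligands of both subclasses, ran from 63.8 through 73.5 to 90.8 CPM in VTA (75.9 ± 8.09, n = 9), below every library of the other regions, whose lowest value was 147 CPM in NAc. VBT (300 ± 59.1 CPM), S1 (287 ± 27.1) and PrL (285 ± 55.8) did not differ beyond their spread from one neighbour to the next (adjusted p = 0.374 for VBT and S1), and Epha4 in VTA stood at -1.86 ± 0.11 (adjusted p = 2.4e-19). Epha5, another receptor of ephrin-A ligands, was instead low in VBT, at 31.5 to 46.4 CPM with a median of 37.8 (38.6 ± 4.41, n = 10), against 132 to 200 CPM on average elsewhere (-2.02 ± 0.08). Epha7 was highest in NAc (102 ± 13.3 CPM) and lowest in VTA (39.7 ± 6.39), but no region passed the fold limit. Epha8 was lower in S1 (-1.08) and PrL (-1.23), and Epha3 higher in PrL (1.05).

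Epha1 was near the detection limit, so its large folds rest on few counts. Its 10 VBT libraries ran from 0.489 through 0.834 to 2.64 CPM, and the S1 (0.0867 CPM) and PrL (0.0989 CPM) means were below the 0.130 CPM of 3 counts in the smallest library. Efna4, an ephrin-A ligand, was also near it, at means of 0.209 to 0.329 CPM, and was called in no region. Epha1 was called higher in VBT (2.46 ± 0.27) and VTA (1.25) and lower in S1 (-2.12) and PrL (-1.63).

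The summed EphB receptors were highest in the cortical regions, a sum led by Ephb6. The 5 of them summed to 308 ± 45.4 CPM in PrL (n = 10) and 232 ± 11.98 in S1 (n = 9), against 187 ± 18.3 in VTA, 137 ± 12.2 in NAc and 123 ± 19.1 in VBT. Most of the PrL sum was Ephb6, a receptor without kinase activity, at 133 to 281 CPM with a median of 218 (216 ± 40.0). Ephb6 was 130 ± 8.26 CPM in S1 and 31.0 CPM in VBT, and its log2 fold changes were 1.97 ± 0.07 in PrL, 1.04 in S1 and -1.48 in VBT. Ephb3 was also higher in S1 (32.6 ± 3.63 CPM, 1.26) and PrL (29.8 ± 3.49 CPM, 1.11). The other 3 had their highest means in VTA: Ephb1 at 85.5 CPM (36.6 in PrL, the lowest), Ephb2 at 27.7 and Ephb4 at 8.42 CPM. Ephb2, a receptor that also acts at excitatory synapses, was lowest in NAc at 6.04 to 12.8 CPM with a median of 8.32 (-1.24 ± 0.08).

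Among the secreted semaphorins, Sema3a, the classical repellent that acts through neuropilin-1, was highest in the cortical and striatal regions. It ran from 36.5 through 48.1 to 63.4 CPM in S1 (48.7 ± 7.17, n = 9), with PrL at 34.2 ± 8.72 and NAc at 27.2 ± 6.68. VBT held 0.819 to 14.3 CPM with a median of 1.35 (3.63 ± 4.27), and the 14.3 came from the library with the most striatum markers. The log2 fold changes of Sema3a were 2.06 ± 0.23 in S1, 1.42 in PrL, -1.69 ± 0.30 in VTA and -2.68 ± 0.31 in VBT. Sema3b was higher in VTA (1.57 ± 0.24) and lower in NAc (-1.20 ± 0.29), at means of 5.69 ± 1.91 and 1.23 ± 0.278 CPM. Its highest value, 17.5 CPM against a VBT median of 1.55, was in the VBT library with the most choroid plexus markers. Sema3f, which acts through neuropilin-2, was higher in VTA (1.21) and lower in VBT (-1.23) and PrL (-1.13).

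The membrane-bound semaphorins of classes 4, 5 and 6 were, as sums, highest in VTA and VBT. Class 6 summed to 471 ± 21.0 CPM in VBT and 426 ± 18.2 in VTA against 225 ± 12.4 in S1, class 5 to 173 ± 16.1 and 162 ± 19.7 against 55.5 ± 8.01, and class 4 to 349 ± 35.5 and 389 ± 28.3 against 216 ± 15.6. By gene, Sema4g (1.86 ± 0.08), Sema6a (1.60), Sema5a (1.47) and Sema6d (1.09) were higher in VBT, and Sema4g (1.21) and Sema6d (1.04) in VTA. Sema4g and Sema5a were lower in S1 (-1.26 and -1.07). Class 4 was not uniform: Sema4a was called lower in VBT (-1.02; 24.6 CPM, against 45.3 to 62.4 elsewhere), and Sema4b (14.9 CPM) and Sema4f (26.5 CPM) also had their lowest means there. Sema4d, a ligand of Plxnb1 that oligodendrocytes express, averaged 154 CPM in both VTA (± 15.1) and VBT (± 47.6) and 64.5 to 82.8 CPM in the others, under the fold limit in both (0.78 and 0.93). Sema5b was the exception of its class, highest in NAc at 24.5 to 47.1 CPM with a median of 40.7 (38.8 ± 7.16; 1.23 ± 0.09). Sema6b varied little, from 98.1 CPM in VTA to 129 in PrL, and was called in no region.

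Plxnb3, an X-linked plexin that oligodendrocytes express and a receptor of Sema5a, had the largest ratio of highest to lowest region mean among plexins (9.66). It ran from 73.3 through 108 to 178 CPM in VBT (116 ± 31.1, n = 10) and from 73.1 through 108 to 141 in VTA (n = 9), and these did not differ (adjusted p = 0.145). PrL held 7.30 to 19.8 CPM with a median of 11.0 (12.02 ± 4.15), and no PrL or S1 library reached the VTA or VBT values. Its log2 fold changes were 1.96 ± 0.10 in VBT, 1.64 ± 0.11 in VTA, -1.14 in S1 and -2.18 ± 0.13 in PrL. The summed myelin genes have the same order of regions as Plxnb3, with Sema4d, Sema4g, Sema5a, Sema6a and Sema6d also high where myelin genes were high. The part of myelin content in these differences was not tested.

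Plxnd1, the receptor of Sema3e, was highest in S1, at 126 to 188 CPM with a median of 146 (150 ± 17.5, n = 9). PrL (77.7 CPM) and NAc (73.1) did not differ (adjusted p = 0.239), and VBT (23.6 ± 6.52) and VTA (19.7 ± 4.43) were lowest. Every S1 library was above every library of the other regions, and the log2 fold changes were 1.92 ± 0.09 in S1, -1.36 in VBT and -1.84 ± 0.12 in VTA. Its ligand Sema3e had another order, with 45.1 ± 6.85 CPM in NAc, 40.4 ± 16.5 in VBT, 30.7 in PrL, 29.1 in S1 and 22.1 in VTA, and was called in no region.

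Sema7a, a membrane-anchored semaphorin that binds Plxnc1 and integrins, was highest in VBT at 260 to 358 CPM with a median of 316 (312 ± 35.01, n = 10). S1 followed at 169 to 285 with a median of 203 (206 ± 32.8), then PrL (115 ± 20.8), VTA (91.9) and NAc (75.2 ± 22.7). Each neighbour in that order differed, and the fold limit was passed in VBT (1.57 ± 0.09, adjusted p = 4.7e-20) and NAc (-1.21 ± 0.10). Its receptor Plxnc1 had its lowest level in VBT, at 14.5 to 40.6 CPM with a median of 28.9 (27.9 ± 7.36; -1.20 ± 0.10), and its highest in PrL (88.5 ± 10.8). The thalamus and S1 held the most Sema7a, and the least Plxnc1 was in the thalamus.

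**Figure D2:**
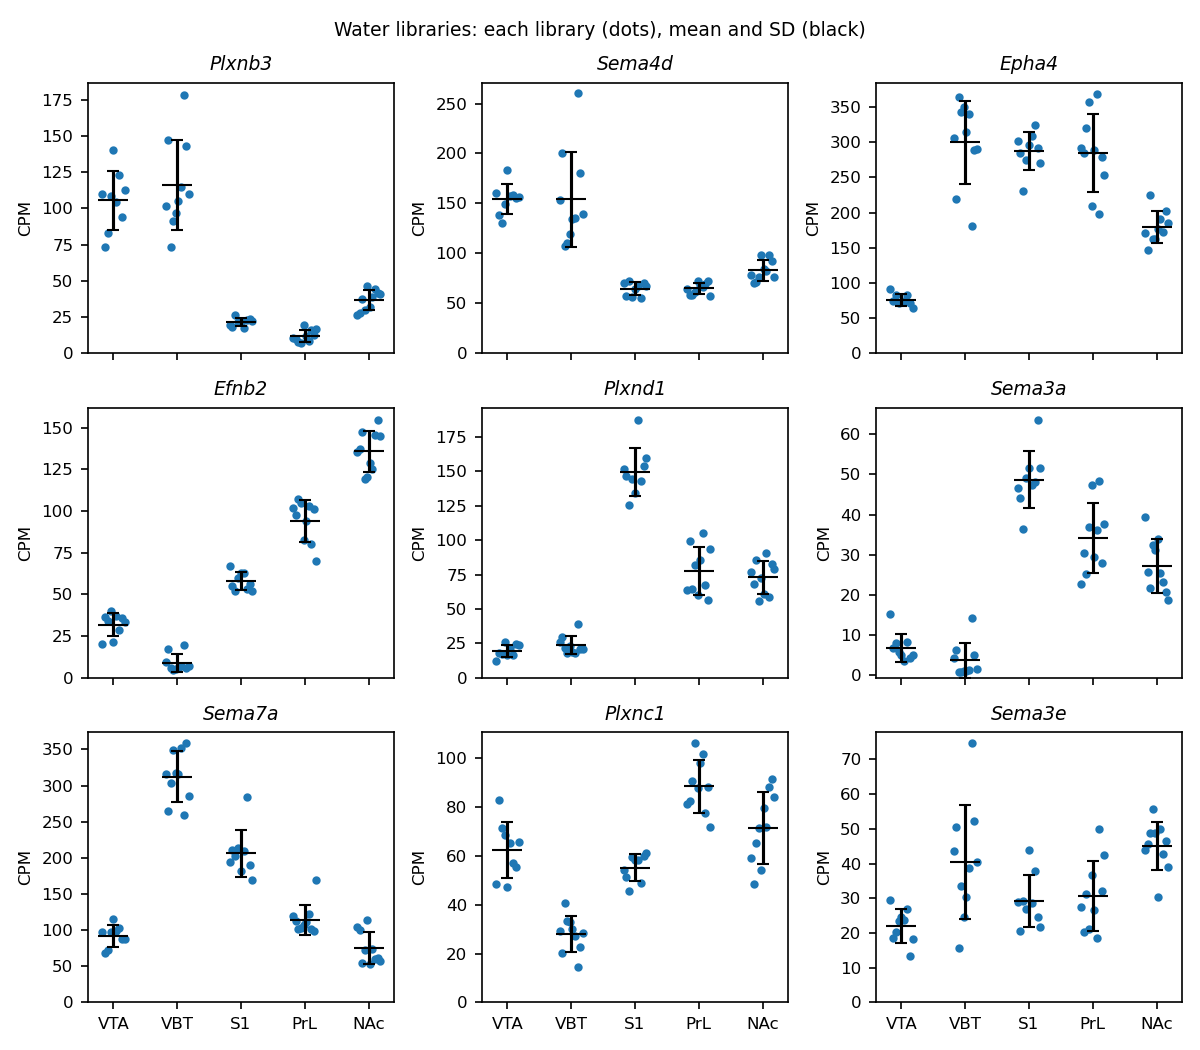
CPM (vertical axis, linear, each panel with its own scale from 0, except that the Sema3a panel starts below 0) of 9 genes in each water library (dots) by region, with the mean and SD in black. Efnb2 is lowest in VBT and highest in NAc, Plxnd1 and Sema3a are highest in S1, and Sema7a and Plxnc1 have opposite extremes in VBT.

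Partners of the set were also called between regions, and the shares of all genes higher and lower are given beside the counts. Of 40 co-receptors and intracellular effectors, 5 were higher and 5 lower in VTA (9.73% and 7.5% of all genes). VBT had 4 higher and 4 lower (8.34% and 11.3%), and S1 5 higher and 4 lower (7.31% and 5.92%). PrL had 4 higher and 3 lower (7.16% and 5.71%), and NAc 1 higher and 3 lower (7.25% and 5.06%). Chn1, a Rac-specific GTPase activator downstream of Epha4, was lower in VTA (-1.93) and higher in S1 (1.24), while Vav3, an exchange factor recruited by Eph receptors, was higher in VBT (3.80), where the adhesion molecule Chl1 was lower (-1.88). Ngef (ephexin), an exchange factor bound by Epha4, was higher in NAc (1.65). Of 21 netrin, Slit, Robo and related guidance genes, the calls were 5 higher and 2 lower (VTA), 3 higher and 8 lower (VBT), 2 higher and 5 lower (S1), 1 higher and 3 lower (PrL) and 3 higher and 2 lower (NAc), against the same shares of all genes. Ntn1 (netrin-1) was higher in VTA (2.59) and NAc (1.38) and lower in S1 (-1.67), and Ntng1 (netrin-G1) was higher in VBT (3.95) and lower in NAc (-1.74).

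Fentanyl was compared with water within each region, for each sex and for the average of the sexes, with calls at adjusted p under 0.05 and no fold limit. In these fits VTA was the region with most calls. That order did not hold with GC content offsets or with the left-out VTA library kept, as given below. Averaged over the sexes, 17 of 51 genes were called, 2 higher and 15 lower, against 23.1% of the 19822 genes tested (11.1% higher and 12% lower). In males 15 of 51 were called, 2 higher and 13 lower, against 22% of all genes (11% in each direction), and 12 genes were called in both. The median log2 fold change of the set was -0.12 on average and -0.24 in males, against 0.00 for all genes in each. On average 39 of the 51 genes were below 0 and 12 above it. NAc males had a like split, with 40 below 0 and 11 above it.

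Sema6b, a transmembrane class 6 semaphorin, had the smallest p of the set in VTA. In males it was 109, 95.9, 124.6 and 113 CPM in the water libraries and 54.0, 76.5, 70.4, 60.2 and 82.2 CPM in the fentanyl libraries, with no overlap. The male fall was -0.65 ± 0.11 on the log2 scale (adjusted p = 0.00222). Females held 67.5, 83.8, 81.7, 112 and 95.1 CPM with water and 65.4, 70.0, 69.7, 72.4 and 74.0 with fentanyl, which overlap, and the average over the sexes was -0.50 ± 0.08 (adjusted p = 0.000935).

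Several plexins were lower too. Plxna1, a receptor for neuropilin-bound class 3 semaphorins, was 143, 130, 153 and 147 CPM in male water libraries and 93.6, 117, 119, 95.3 and 119 in male fentanyl libraries (-0.36 ± 0.07; adjusted p = 0.00359). Plxnb1 ran from 165 to 175 CPM in male water and from 123 to 146 in male fentanyl libraries (-0.35 ± 0.07; adjusted p = 0.00338). Neither gene's male groups overlapped. Groups without overlap were common in VTA males, at 15 of the 49 genes of the set at 1 CPM or more (30.6%) and 27.4% of all such genes. The other named genes lower in males were Sema4c (-0.47), Sema4g (-0.43) and Sema6c (-0.40), and on average Epha10 (-0.27), Sema4c (-0.31) and Sema4g (-0.28).

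Few genes of the set rose in VTA. Sema3d, a secreted class 3 semaphorin, was 12.6, 15.2, 14.3 and 17.5 CPM in male water libraries and 19.0, 20.7, 20.5, 21.5 and 20.6 in male fentanyl libraries, with no overlap (0.49 ± 0.14; adjusted p = 0.0163). Plxna2 was 76.5, 70.0, 69.3 and 75.0 CPM with water and 76.7, 84.7, 83.5, 85.1 and 87.1 with fentanyl in males, with ends that nearly touched (0.24 ± 0.07). Sema6d rose on average by 0.14 ± 0.04.

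These changes varied with the GC content of the exons, counted over all annotated transcripts of a gene. Across the 51 genes in VTA males, the Spearman rho between GC content and log2 fold change was -0.71, as a description of genes that share the same libraries, and the set had a median GC content of 56.2% against 49.9% for all genes at 1 CPM or more. The VTA libraries themselves differed in this trend. Across all genes, the rho between GC content and a gene's level relative to the VTA mean averaged 0.59 ± 0.06 in the 4 male water libraries and -0.34 ± 0.18 in the 5 male fentanyl libraries. It was 0.06 ± 0.49 in female water and -0.32 ± 0.21 in female fentanyl libraries. The female water libraries were split, at -0.32, -0.32 and -0.24 in replicates 1, 2 and 3 and 0.66 and 0.54 in replicates 4 and 5. With each library's GC trend entered as offsets, none of the 15 male calls was made, and Efna3, at 0.03 without offsets, was called higher (0.35, adjusted p = 0.0427; 1 of 51, against 2.88% of all genes). On average 1 was called, Epha6 (-0.38, adjusted p = 0.0463, against 3.65% of all genes), and the medians of the set were -0.02 and -0.01. In males, Sema6b moved to -0.20 (adjusted p = 0.151), Plxna1 to -0.09 (0.488), Plxnb1 to -0.04 (0.750), Sema4c to -0.17 (0.221), Sema4g to -0.19 (0.265) and Sema3d to 0.23 (0.262), while Plxna2 stayed at 0.23 (0.057). Fentanyl treatment and the GC trend of the VTA libraries cannot be told apart in males. The region comparisons, which use the same water libraries, were made without GC offsets.

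**Figure D3:**
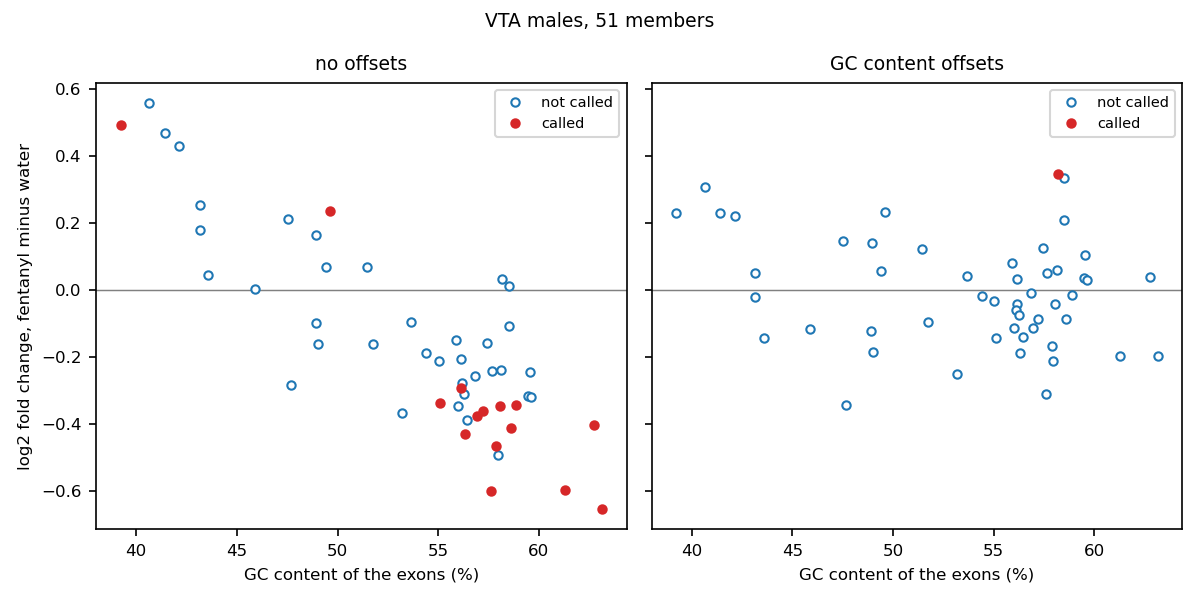
Log2 fold change of fentanyl minus water in VTA males (vertical axis) against the GC content of the exons in percent (horizontal axis) for the 51 genes, without (left) and with (right) GC content offsets; filled red points were called at adjusted p under 0.05. On the left the points fall with GC content (rho -0.71) and 15 are called; on the right they lie closer to 0 and 1 is called.

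With the sparse male water library kept, 1 gene was called on average (Plxna1; 0.309% of all genes) and none in males (0.216%). Sema6b stood at 366 CPM in that library, above all other VTA libraries, and its male log2 fold change became -1.035. Leaving out any other single library gave 12 to 23 calls on average and 6 to 17 in males. The male count was 6 without male water replicate 4 and 8 without male water replicate 5. In VTA females none of the 51 was called by edgeR (0% of all genes) or by DESeq2 (0.434% of all genes). At unadjusted p under 0.05 there were 7 (13.7%, against 12.7% of all genes), and the smallest p was that of Efna3, an ephrin-A ligand. It held 16.3, 17.4, 15.8, 17.7 and 16.6 CPM with water and 15.3, 15.5, 13.6, 14.1 and 14.2 with fentanyl, which do not overlap (-0.22, adjusted p = 0.274). Groups without overlap made up 2.04% of the set in VTA females (1 of 49 at 1 CPM or more), against 1.78% of all such genes. The difference between the sexes in the fentanyl effect was called for none by edgeR or by DESeq2 (0.0303% of all genes), with 10 at unadjusted p under 0.05 (19.6%, against 11.4% of all genes).

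Plxnb1, the receptor of Sema4d, was the single gene of the set called in NAc. In males the water libraries held 126, 136, 150, 137 and 136 CPM and the fentanyl libraries 94.0, 95.8, 88.8, 103 and 123 CPM, with no overlap. Plxnb1 was the only gene of 49 in the set at 1 CPM or more without overlap there (2.04%, against 3.97% of all such genes). It fell by 0.41 ± 0.08 on the log2 scale (edgeR adjusted p = 0.0357), in a contrast that called 0.662% of 19480 genes (0.421% higher and 0.241% lower). In females the order was the other way, with 104, 110, 113, 106 and 111 CPM with water and 137, 139, 131, 136 and 100 with fentanyl (0.23 ± 0.08, adjusted p = 0.544). The difference between the sexes was -0.64 ± 0.11 and missed the threshold (adjusted p = 0.0811; 0 of 51 called, and 5 at unadjusted p under 0.05, 9.80% against 15.2% of all genes). DESeq2 called it (adjusted p = 0.0023) and Plxnb2, against 2.49% of all genes, and edgeR called it in 3 of the 20 fits that left out 1 library: without the fentanyl female at 100 CPM (adjusted p = 0.00314), male fentanyl replicate 5 (0.0219) or female water replicate 3 (0.0305). The water groups of the sexes did not overlap either. Across the set in NAc males, 40 of the 51 genes were below 0 and 11 above it (21.6% above, against 49% of all genes). The median was -0.15, or -0.13 with GC offsets (39 below 0) and -0.08 with exon length offsets (34 below 0). At unadjusted p under 0.05 there were 12 in NAc males (23.5%, against 17.6% of all genes).

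The male call of Plxnb1 was close to the threshold. Its adjusted p ran from 0.00108 to 0.133 over the alternatives. Among its losses were exon length offsets (-0.30, adjusted p = 0.0717) and leaving out any of 7 of the 20 NAc libraries: female fentanyl replicate 3, male fentanyl replicates 2 and 3, and male water replicates 1 to 4. In those 7 fits the log2 fold change lay between -0.43 and -0.37 and the adjusted p between 0.05001 and 0.116. The rho between exon length and level averaged -0.20 ± 0.16 in the male fentanyl and 0.13 ± 0.18 in the male water libraries, and its part in the call was not tested. DESeq2 called 5 genes of the set in NAc males (Efna5, Plxna1, Plxnb1, Plxnb2 and Sema5a), against 4.72% of all genes. GC offsets gave 3 (Plxna1, Plxnb1 and Plxnb2), against 2.66%. Cortex markers spanned 93.3 to 807 CPM in the male fentanyl and 375 to 747 CPM in the male water libraries, and Plxnb1 was lowest in a fentanyl library with 690 CPM of them. Without 3 cortex-rich female water libraries the adjusted p was 0.0484.

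Plxnb1 also had the smallest p of the set in PrL. Female libraries held 90.4, 97.3, 78.1, 81.5 and 105 CPM with water and 77.7, 81.2, 74.1, 73.1 and 80.3 with fentanyl, and males 92.4, 85.6, 104, 92.9 and 94.1 with water and 71.6, 90.6, 81.0, 78.1 and 79.1 with fentanyl. The groups overlapped in both sexes, and the average was -0.20 ± 0.05 (adjusted p = 0.0554), so it was not called. None of the 50 genes tested was called in the PrL average, against 0.697% of all genes. At unadjusted p under 0.05 there were 7 of 50 (14%), against 19.1% of all genes. Plxnb1 was the single gene of the set called by DESeq2 (adjusted p = 0.0105; 4.08% of all genes called), with GC offsets (0.0237; 1.54%) and with a filter at a mean of 50 counts (0.0494; 0.898%). Its adjusted p was 0.127 without 2 libraries rich in olfactory bulb markers and 0.627 with the percentage of reads outside exons as a covariate, a fit that called no gene at all; the log2 fold change in that fit was -0.20. That percentage was lower with fentanyl in PrL, at 11.0% against 13.3% in females (two-sided exact permutation test, p = 0.00794, the smallest this design allows) and 11.8% against 13.7% in males (exact p = 0.0159; both adjusted to 0.648 over 120 tests). Sema4d, the ligand, was not called in either region (NAc males -0.16, adjusted p = 0.374; PrL average 0.12, adjusted p = 0.229). The comparisons in different regions use different libraries, but the labels do not say whether these came from the same mice.

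**Figure D4:**
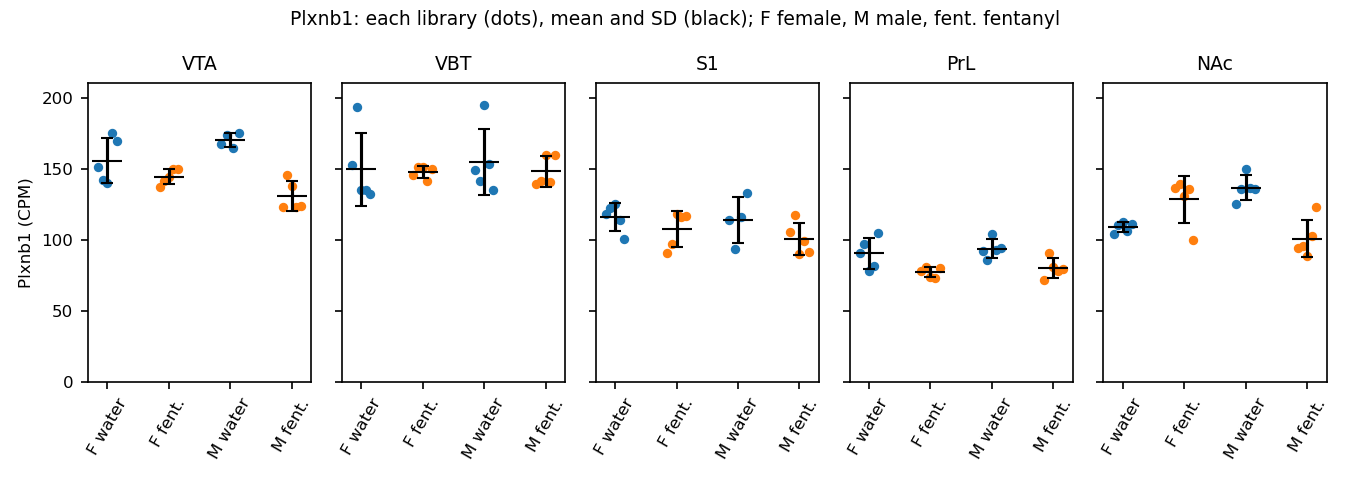
Plxnb1 in CPM (vertical axis from 0) in each library (dots) by sex and treatment in the 5 regions, with the mean and SD in black. Male fentanyl lies below male water without overlap in VTA and NAc, whereas in NAc females 4 of the 5 fentanyl libraries lie above all water libraries.

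S1 and VBT gave no call in the set. In S1, where 50 of the 51 genes were tested, the average called 1.03% of all genes and none of the set. At unadjusted p under 0.05 there were 5 (10%, against 15.8% of all genes), and the smallest p belonged to Sema3c, a secreted semaphorin that acts through both neuropilins. Its female libraries held 39.0, 40.7, 42.8, 40.0 and 36.8 CPM with water and 34.9, 33.0, 36.7, 32.5 and 32.4 with fentanyl, which did not overlap. Males held 37.2, 44.3, 36.5 and 34.7 CPM with water and 33.2, 36.9, 33.45, 34.0 and 34.95 with fentanyl, which did. Groups without overlap made up 2.04% of the set in S1 females (1 of 49 at 1 CPM or more), against 4.93% of all such genes. The Sema3c average was -0.18 ± 0.05 (adjusted p = 0.071), and DESeq2 called Sema3c on average (3.27% of all genes called) and in females (-0.25, adjusted p = 0.0464; 2.06%). Females called 0.142% of all genes and none of the set (4 at unadjusted p under 0.05, 8% against 13.9% of all genes), with Sema4g first (0.29, adjusted p = 0.116). S1 males called none (0% of all genes; 0 with DESeq2; 2 at unadjusted p under 0.05, 4% against 7.15%), with Epha3 first (-0.39, adjusted p = 0.638).

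In VBT no gene at all was called for fentanyl by edgeR (0% in every contrast). DESeq2 called none of the set there, against 0.0159% of all genes on average, 0.164% in females and 0.275% in males. At unadjusted p under 0.05 there were 8 of the set on average (15.7%, against 8.49% of all genes), 12 in females (23.5%, against 7.86%) and 3 in males (5.88%, against 8.70%). Plxna3, an X-linked receptor for neuropilin-bound semaphorins, was first on average (0.30, adjusted p = 0.445). Its female libraries held 17.9, 22.8, 20.4, 18.5 and 19.0 CPM with water and 23.6, 25.0, 25.6, 24.7 and 27.4 with fentanyl, without overlap. Males held 20.7, 15.8, 20.6, 18.9 and 18.5 CPM with water and 18.3, 19.3, 18.2, 31.5 and 26.3 with fentanyl, and these overlapped. In VBT females 7 genes of the set had groups that did not overlap (Epha10, Ephb2, Plxna1, Plxna3, Sema4a, Sema4f and Sema6c), which is 14% of the 50 at 1 CPM or more, against 2.18% of all such genes. The first by p was Sema4f, a class 4 semaphorin (0.32, adjusted p = 0.408), and in males it was Epha8 (0.85, adjusted p = 0.291).

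The remaining fentanyl contrasts called none of the set. These were PrL females (0.021% of all genes; Plxnb2 first, -0.23, adjusted p = 0.309), PrL males (0%; Plxnb1 first), NAc females (0%; Epha5 first, -0.56, adjusted p = 0.544) and the NAc average (0%; Efna5 first, -0.31, adjusted p = 0.186). At unadjusted p under 0.05 the set had 5 (10%, against 9.53% of all genes), 4 (8%, against 11.97%), 8 (15.7%, against 9.03%) and 12 (23.5%, against 12.03%) in these. DESeq2 called 1 gene of the set here, Efna5 in the NAc average (0.565% of all genes called). The differences between the sexes in the fentanyl effect called none with edgeR or with DESeq2 in VBT (0.576% of all genes by DESeq2; 7 at unadjusted p under 0.05, 13.7% against 8.03%), S1 (1, 2% against 4.14%) or PrL (0, against 2.59%).

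**Figure D5:**
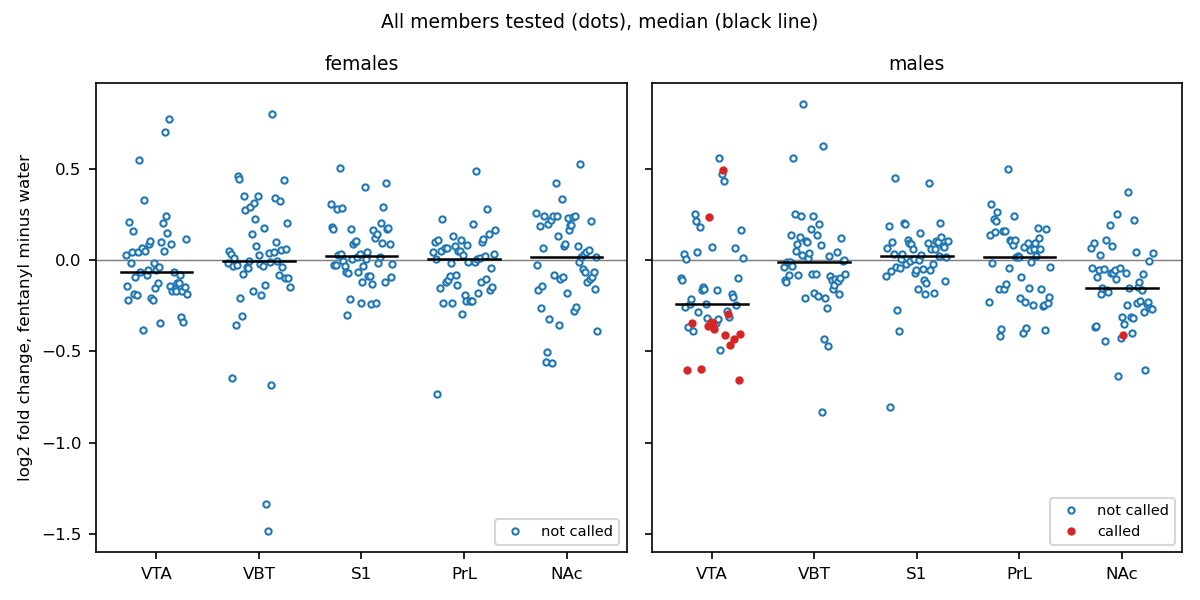
Log2 fold change of fentanyl minus water for each gene of the set tested (dots) in females (left) and males (right) of the 5 regions, with the median as a black line; filled red points were called at adjusted p under 0.05. All called points are in VTA males (15) and NAc males (1), and the median line is lowest in VTA males at -0.24.

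Co-receptors and other guidance families had nearly all their fentanyl calls in VTA. Most calls of all genes were in VTA too. In the VTA average 5 of the 40 co-receptors and effectors were higher and 7 lower, against 11.1% and 12% of all genes, with Rac1, the GTPase that plexins act on, at 0.20 and Pick1, a scaffold that binds Eph receptors and ephrin-B, at -0.49. Of the 21 other guidance genes 1 was higher (Slit2, 0.16) and 3 lower, near those shares, among them Rgma, a ligand of neogenin (-0.32). VTA males called 5 co-receptors and effectors higher and 6 lower (Rac1 0.27, Pick1 -0.70), and 3 other guidance genes lower (Rgma -0.54), against 22% of all genes. These calls were made without GC offsets. In S1, Dpysl2 (CRMP2), a relay of semaphorin 3A signals to microtubules, was higher on average (0.24). All other fentanyl contrasts outside VTA called none of either list.

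No gene of the set was called between females and males in any region, averaged over treatments (0 called by edgeR, where VTA called 0.0858% of all genes, VBT 0.132%, S1 0.0709%, PrL 0.0786% and NAc 0.077%). At unadjusted p under 0.05 the counts were 1 (1.96%, against 7.25% of all genes), 9 (17.6%, against 13.1%), 4 (8%, against 6.12%), 1 (2%, against 3.92%) and 3 (5.88%, against 9.72%). DESeq2 called 1 in VBT (1.36% of all genes) and 0 elsewhere (VTA 0.156%, S1 0.182%, PrL 0.0944% and NAc 0.308% of all genes). The 3 X-linked genes, Efnb1, Plxna3 and Plxnb3, had log2 fold changes of male minus female between -0.16 and 0.26. The nearest to a call was Sema3e in VBT (0.70 ± 0.18, adjusted p = 0.135), which DESeq2 called (adjusted p = 0.0133). It was also called without the female VBT libraries with choroid plexus or Y-linked reads (0.83, adjusted p = 0.0438), a fit that called 0.899% of all genes. Female water libraries held 43.5, 50.6, 15.8, 33.5 and 24.6 CPM and female fentanyl libraries 26.7, 18.4, 19.5, 21.8 and 18.3. Male water libraries held 30.2, 38.6, 74.7, 52.2 and 40.6 CPM and male fentanyl libraries 32.8, 32.5, 43.1, 48.2 and 42.2. The sexes overlapped with water and did not with fentanyl, and the highest value, 74.7, was in the VBT library with the most striatum markers. Met, the receptor kinase for hepatocyte growth factor and a partner of plexin B1, was higher in VBT males (1.15) and the only gene of both lists called for sex.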

How the data were processed

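The authors deposited 1 table of whole-number read counts per gene for each library, made with HTSeq on GRCm38, per the submitters' processing notes; the aligner is not given in the sources used here. The SMART-Seq v4 kit, which amplifies full-length cDNA without molecular identifiers, was used on 10 ng of RNA, per the labels' protocols. Gene symbols, exons and GC content came from GENCODE M21, which held 55154 of the 55335 identifiers; rows of reads outside genes stayed out of all totals. The members, the gene lists and the tests were chosen with earlier results of these data known.

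Counts were tested with edgeR 4.0.16 (R 4.3.3; TMM, filterByExpr, robust quasi-likelihood F-test, Benjamini-Hochberg over all genes tested), 1 fit per region for treatment and sex and 1 for regions in water libraries. Group levels are CPM with SD. Named genes were, per contrast, up to 6 called in each direction or else the 1 with the smallest p; per region the 3 highest and 3 lowest called; the 5 highest per kb; and 9 chosen by name. The other genes given were chosen after their values were seen. Exons of 13 members overlap another gene (14.1% of Efna3, 10.7% of Plxna1, 2.68% of Plxnb1); strand use is not given, so reads there cannot be assigned with certainty. Marker lists were compared by two-sided exact permutation tests (scipy 1.17.1), none under 0.05 after adjustment. Alternatives were DESeq2 1.42.0, its size factors, other count filters, the replicate number as a block, GC and exon length offsets, the percentage of reads outside exons as a covariate, and libraries left out. Leaving out libraries rich in markers of another tissue was chosen after seeing the data. The fits were tested on simulated data.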

Additional observations from a re-analysis of the deposited data

Results flagged for a closer look

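Within groups of 4 or 5 libraries, named genes were screened for 1 library far from the others by Dixon's criterion. Of 112 groups compared, 6 stood out, and chance gives 5.6. In NAc, Plxnb1 was 99.95 CPM in female fentanyl replicate 5 against 130.6 to 139.1 in the other 4. In PrL, Epha2 was 0.7398 CPM in female fentanyl replicate 4 (others 1.184 to 1.347) and 3.17 in male water replicate 3 (others 1.213 to 1.642), and Plxnb2 was 54.38 in female fentanyl replicate 5 (others 50.82 to 51.73). Epha10 was 97.33 CPM in S1 male fentanyl replicate 1 (others 68.17 to 76.48) and 81.5 in VTA female water replicate 1 (others 97.24 to 103.6). The left-out male water VTA library had a count in 6333 genes against 25650 to 27111 in its group.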

How the results depend on the processing

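The VTA fentanyl calls depended on GC content and on 1 library, which also changed counts between pairs of regions. GC offsets gave 1 call in the VTA average (Epha6) and 1 in VTA males (Efna3, not called without offsets), where Sema6c turned from -0.40 to 0.03787, and gave 1 in the PrL average and 3 in NAc males. With the sparse VTA library kept, the calls were 1 and 0, and the pairs VTA and VBT, VTA and S1, S1 and PrL, S1 and NAc, and PrL and NAc gave 20, 30, 14, 18 and 20 (28.5, 44.2, 11, 25.6 and 23.1% of all genes). The cause of these changes was not tested. DESeq2 gave 1 call for sex in VBT, 1 each in the S1 average, S1 females, PrL average and NAc average, 5 in NAc males and 2 in the NAc difference between the sexes. A filter at a mean of 50 counts gave 1 in the PrL average, exon length offsets 0 in NAc males (0.637% of all genes), and the covariate for reads outside exons 1 in the NAc average (1.46%) and 4 in NAc males (1.47%). Without the female VBT libraries with choroid plexus or Y-linked reads, 1 gene was called for sex (Sema3e). With no fold limit, VTA, VBT, S1, PrL and NAc called 46, 47, 36, 45 and 40 genes (64.8, 67.2, 59.8, 57.8 and 59.2% of all genes). Fentanyl libraries in place of water gave 7 in S1 (10.8%) and 9 in NAc (14.3%). Leaving out libraries rich in another tissue's markers changed no count by over 1.5 times.

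Leaving out 1 library at a time gave 12 to 23 calls in the VTA average, 6 to 17 in VTA males, 0 to 1 for sex in VBT (1 without female water replicate 2), 0 to 1 in the PrL average, 0 to 7 in NAc males (7 without male fentanyl replicate 5), 0 to 3 for the NAc difference between the sexes, and 0 in all other fentanyl and sex contrasts. Region fits were repeated without all water libraries of 1 replicate number at a time; they gave 10 to 12 (VTA), 17 to 20 (VBT), 10 to 11 (S1), 10 to 12 (PrL) and 5 to 7 (NAc), and pairs 30 to 34 (VTA, VBT), 41 to 44 (VTA, S1), 41 to 46 (VTA, PrL), 35 to 41 (VTA, NAc), 40 to 42 (VBT, S1), 41 to 42 (VBT, PrL), 40 to 43 (VBT, NAc), 22 to 26 (S1, PrL), 31 to 39 (S1, NAc) and 34 to 37 (PrL, NAc).

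The groups share replicate numbers, but no stratum had every same-numbered pair correlated above 0.1 (48 pairs of treatments, r from -0.545 to 0.591, mean 0.0351 against -0.00458 for other numbers; 192 pairs of regions, -0.334 to 0.589, mean 0.0487 against -0.0123; all VTA female pairs were positive, from 0.0615). The replicate block gave 21 calls in the VTA average, 17 in VTA males and 0 in NAc males, where Plxnb1 kept its fold (-0.41, adjusted p = 0.133), and changed no other fentanyl or sex count. Depth limits Epha1 and Efna4, which lay near the counting floor.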
